A study of Mus musculus with 32 samples.

Results

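A group of 6 genes was examined together, namely Grip2, Nrip2, Susd5, Pgam2, Hfe2, and Lrrc10b, whose transcripts fall in brain arteries without Notch3 and whose roles in arteries are little known. They are 6 of the 55357 Ensembl genes in the count table. They were chosen by name because their levels fall in Notch3-/- mice, so values of that comparison are given below as a description and without a test. Brain arteries were dissected from 32 mice, 8 in each of 4 groups, and each mouse gave 1 library. Notch3-/- mice have Notch3 inactivated in all cells and, like Notch3+/+ mice, were 3 months old. TgNotch3R169C mice and WT mice were 12 months old. The transgene is a large genomic clone of rat Notch3 with a cysteine mutation of the small vessel disease CADASIL. It comes in addition to the mouse gene and sits on the X chromosome, and the transgenic mice of these libraries are of 1 line. All groups share the C57BL/6 background and were untreated, and the study used both sexes. Age, mouse line, and cohort differ together between the 3-month and the 12-month groups, and they cannot be told apart.

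NOTCH3 is a receptor of arterial smooth muscle cells and pericytes. When a ligand of the JAGGED or DELTA family on a neighboring cell binds it, its intracellular domain is cut free, enters the nucleus, and joins the DNA-binding protein RBPJ to switch on target genes. In small arteries the pathway is known for the maturation and upkeep of smooth muscle cells. The 6 genes play unlike roles. Grip2 encodes a scaffold with several PDZ domains that holds AMPA-type glutamate receptors and ephrin-B proteins at synapses. Nrip2 encodes a protein that binds nuclear receptors. Susd5 encodes a membrane protein with a sushi domain and a link domain of the kind that binds hyaluronan. Pgam2 encodes the muscle form of phosphoglycerate mutase, an enzyme of glycolysis. Hfe2, also called Hjv, encodes hemojuvelin, a co-receptor for bone morphogenetic proteins that drives production of the iron hormone hepcidin in liver. Lrrc10b encodes a protein of leucine-rich repeats, and its paralogue Lrrc10 is a protein of the heart muscle sarcomere.

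The promoters are shown because RBPJ acts on DNA and because the 6 genes were chosen as falling together. RefSeq gave a promoter, from 250 bases before to 50 bases after the start site, for 4 of the 6 genes, and those of Nrip2 and Hfe2 were not analysed here. Coordinates of these sequences are those of GRCm38.p6, a different build from the mm39 named in the submitters' processing notes, and no other coordinates are given. The sequences read 5′ to 3′ along the gene, and capitals mark the motifs found. They lie at chr6:91807344-91807643 (minus strand) for Grip2, chr9:114057104-114057403 (plus strand) for Susd5, chr11:5803747-5804046 (minus strand) for Pgam2, and chr19:10457398-10457697 (minus strand) for Lrrc10b.
Grip2: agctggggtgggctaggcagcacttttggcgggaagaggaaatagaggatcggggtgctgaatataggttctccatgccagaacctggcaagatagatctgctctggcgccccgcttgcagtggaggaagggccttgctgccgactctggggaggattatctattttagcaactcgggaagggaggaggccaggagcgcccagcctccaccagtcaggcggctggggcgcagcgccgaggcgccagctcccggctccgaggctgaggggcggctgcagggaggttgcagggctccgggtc
Susd5: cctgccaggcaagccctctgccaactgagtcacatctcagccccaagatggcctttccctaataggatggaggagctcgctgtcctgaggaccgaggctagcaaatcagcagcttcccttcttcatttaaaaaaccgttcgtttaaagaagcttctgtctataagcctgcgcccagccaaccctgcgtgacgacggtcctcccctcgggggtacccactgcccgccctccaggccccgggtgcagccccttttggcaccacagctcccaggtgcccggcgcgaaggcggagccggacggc
Pgam2: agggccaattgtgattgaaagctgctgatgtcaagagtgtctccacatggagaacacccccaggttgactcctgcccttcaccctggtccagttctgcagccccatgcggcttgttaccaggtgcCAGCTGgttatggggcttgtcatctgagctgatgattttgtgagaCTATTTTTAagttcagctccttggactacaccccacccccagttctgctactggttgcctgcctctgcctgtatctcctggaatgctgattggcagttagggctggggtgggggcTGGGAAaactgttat
Lrrc10b: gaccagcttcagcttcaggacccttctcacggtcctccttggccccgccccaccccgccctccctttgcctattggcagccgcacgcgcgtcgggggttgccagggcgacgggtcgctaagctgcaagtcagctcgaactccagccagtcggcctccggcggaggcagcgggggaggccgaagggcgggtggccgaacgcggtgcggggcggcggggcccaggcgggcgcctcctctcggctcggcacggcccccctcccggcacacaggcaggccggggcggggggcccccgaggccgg
Of these promoters, only that of Pgam2 held any of the motifs searched. It held TGGGAA, the core of the RBPJ site, with its first base 35 bases after the start site. It also held CAGCTG, an E-box of muscle genes, 125 bases before the start site, and CTATTTTTA, a site for MEF2 factors of muscle, 80 bases before it. Of all 32851 mouse promoters of the same length, 25.6% held TGGGAA, 16.3% held CAGCTG, and 0.493% held CTATTTTTA. The longer RBPJ form GTGGGAA, which includes TGGGAA and stands in 6.38% of all promoters, and the CArG box bound by serum response factor, in 1.63%, were found in none of the 4. TATAAA, read on the strand of the gene and present in 8.32% of all promoters, was found in none of them either. Both strands were searched for the other motifs, which were chosen with the sequences in view. A match is a run of letters and not a binding site, and a motif that is missing says only that these letters are not in this window.

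Levels are given as CPM, a count scaled to the TMM-normalized size of its library, and each group has n = 8 mice. Notch3 checks the genotypes. It averaged 16.2 ± 1.82 CPM (SD) in the knockout and 83.6 ± 12.0 CPM in its controls, and 182 ± 34.5 CPM in TgNotch3R169C and 73.2 ± 8.19 CPM in WT mice, without overlap within either pair. Reads of Notch3 thus remained in the knockout, at a 0.194-fold level, and counts per gene do not show which part of the gene they come from. The counts do not separate the rat from the mouse transcript. The total count per library ranged from 20289487 to 54481934. The arteries carried their smooth muscle and endothelial markers (summed levels of 1199 to 4404 and 1421 to 2160 CPM), with markers of neurons (335 to 1856 CPM) and, in some libraries of every group except Notch3+/+, of choroid plexus (226 to 25436 CPM over all mice). In whole arteries, fewer cells of a type and less RNA per cell cannot be told apart. It is not stated that mice came from separate litters, so p-values measure the spread between these mice.

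Grip2 (ENSMUSG00000030098, chromosome 6), the scaffold of glutamate receptors, had the highest CPM of the 6 genes in every group. Its level ranged from 26.7 to 60.0 CPM (median 38.1) in Notch3+/+ mice and from 15.5 to 24.9 CPM (median 18.2) in Notch3-/- mice. Each Notch3-/- mouse lay below each Notch3+/+ mouse. At 12 months it ranged from 21.8 to 32.5 CPM (median 26.2) in WT mice and from 21.6 to 61.8 CPM (median 28.3) in TgNotch3R169C mice. Of the TgNotch3R169C mice, 3 lay above and 1 below the whole WT range, and replicate 5 stood far above the others. The mean of 32.3 ± 13.2 CPM against 26.7 ± 3.46 CPM in WT mice gave a log2 difference of 0.27 (adjusted p = 0.759, edgeR), with an SE of 0.180 and a 95% CI from −0.11 to 0.65, and 0.078 without replicate 5. The log2 difference of 0.27 was smaller than the SD of log2 CPM between TgNotch3R169C mice (0.499) and larger than that between WT mice (0.185).

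Nrip2 (ENSMUSG00000001520, chromosome 6), the nuclear receptor partner, ranged from 7.26 to 11.5 CPM (median 9.41) in Notch3+/+ mice and from 3.65 to 6.85 CPM (median 5.35) in Notch3-/- mice. The ranges did not overlap, and the distance between the nearest mice was small. At 12 months WT mice ranged from 5.04 to 8.19 CPM (median 7.07) and TgNotch3R169C mice from 6.67 to 10.7 CPM (median 7.18). The groups overlapped except for replicate 6 of the TgNotch3R169C mice, which stood above every WT mouse. TgNotch3R169C mice differed from WT mice by 0.16 on the log2 scale (adjusted p = 0.781, edgeR), with an SE of 0.123 and a 95% CI from −0.10 to 0.42, and 0.075 without replicate 6. Of the 50-base stretches of the Nrip2 transcripts, 13.5% are shared with other genes, mainly with Gm44596, which overlaps Nrip2 on the same strand and is listed at 0 counts in every library. Itfg2 and Gm15862 overlap Nrip2 on the opposite strand, and Itfg2 was the more abundant, at 22.1 ± 1.63 CPM in Notch3+/+ mice. Whether reads were counted by strand, and how reads shared by overlapping genes were counted, was not given in the sources used here, so the level of Nrip2 is uncertain.

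Susd5 (ENSMUSG00000086596, chromosome 9), the membrane protein with a link domain, ranged from 21.2 to 38.6 CPM (median 25.7) in Notch3+/+ mice and from 10.1 to 15.8 CPM (median 11.6) in Notch3-/- mice. The lowest Notch3+/+ mouse stood well above the highest Notch3-/- mouse. At 12 months it ranged from 12.1 to 21.1 CPM (median 15.2) in WT mice and from 10.1 to 16.1 CPM (median 12.2) in TgNotch3R169C mice. Every mouse aged 12 months, mutant or not, lay below every Notch3+/+ mouse aged 3 months, by a small margin for the highest WT mouse. Of all genes, 0.845% of 17643 were lower without overlap in WT mice aged 12 months and 0.652% of 18555 were so in TgNotch3R169C mice. The Notch3+/+ mice took part in the choice of the genes, and age, line, and cohort differ here, so this is a description. Of the TgNotch3R169C mice, 4 lay below the WT range, and 3 WT mice lay above that of the TgNotch3R169C mice. TgNotch3R169C mice differed from WT mice by −0.34 on the log2 scale (SE 0.122, 95% CI from −0.60 to −0.081), with an unadjusted p of 0.0131 and an adjusted p of 0.611 (edgeR). Susd5 was the only member at an unadjusted p below 0.05 there, where 7.27% of 17731 genes were.

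Pgam2 (ENSMUSG00000020475, chromosome 11), the muscle phosphoglycerate mutase, was scarce. It ranged from 0.718 to 1.94 CPM (median 0.974) in Notch3+/+ mice and from 0.273 to 0.719 CPM (median 0.495) in Notch3-/- mice, on counts of 10 to 72 per library. The 2 groups touched, the highest Notch3-/- mouse lying level with the lowest Notch3+/+ mouse. At 12 months WT mice ranged from 0.480 to 0.952 CPM (median 0.701) and TgNotch3R169C mice from 0.437 to 1.07 CPM (median 0.591). The ranges overlapped, with 2 TgNotch3R169C mice below and 1 above the WT range. Their log2 difference was −0.021 (adjusted p = 0.987, edgeR), with an SE of 0.210 and a 95% CI from −0.47 to 0.42, so a change of up to 0.724-fold or 1.34-fold lies within the interval. In WT mice aged 12 months the CV between mice, 23.7%, was about that of counting alone (22.8%), so differences between single WT mice were not detectable. The CV was 29.1% against 25.8% from counting in Notch3-/- mice. It was 34.9% against 16.9% in Notch3+/+ mice and 34.2% against 23.0% in TgNotch3R169C mice.

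Hfe2 (ENSMUSG00000038403, chromosome 3), the co-receptor for bone morphogenetic proteins, was scarce too. It ranged from 1.27 to 2.67 CPM (median 2.03) in Notch3+/+ mice and from 0.313 to 0.938 CPM (median 0.602) in Notch3-/- mice, on counts of 46 to 120 and 8 to 30. The ranges did not overlap. At 12 months it ranged from 0.690 to 1.88 CPM (median 1.38) in WT mice and from 0.736 to 1.38 CPM (median 1.06) in TgNotch3R169C mice. All TgNotch3R169C mice lay above the lowest WT mouse, and 4 WT mice lay above the highest TgNotch3R169C mouse. TgNotch3R169C mice differed from WT mice by −0.39 on the log2 scale (adjusted p = 0.704, edgeR), with an SE of 0.207 and a 95% CI from −0.83 to 0.047. Hfe2 had the largest fall of the 6 genes in Notch3-/- mice and the lowest value of the 6 in TgNotch3R169C mice.

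Lrrc10b (ENSMUSG00000090291, chromosome 19), the leucine-rich repeat protein, ranged from 4.69 to 10.8 CPM (median 7.41) in Notch3+/+ mice and from 2.13 to 3.65 CPM (median 2.70) in Notch3-/- mice. The ranges did not overlap. At 12 months it ranged from 2.79 to 5.06 CPM (median 4.20) in WT mice and from 3.73 to 5.66 CPM (median 4.51) in TgNotch3R169C mice. Replicate 6 of the TgNotch3R169C mice stood above the WT range, and none stood below it. TgNotch3R169C mice differed from WT mice by 0.16 on the log2 scale (adjusted p = 0.795, edgeR), with an SE of 0.131 and a 95% CI from −0.12 to 0.43. Every Notch3-/- mouse lay below every TgNotch3R169C mouse, which was so for 0.598% of 18555 genes and for no other member. The low values of Notch3-/- mice chose the genes, and age, line, and cohort differ between these groups, so this is a description.

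**Figure D1:**
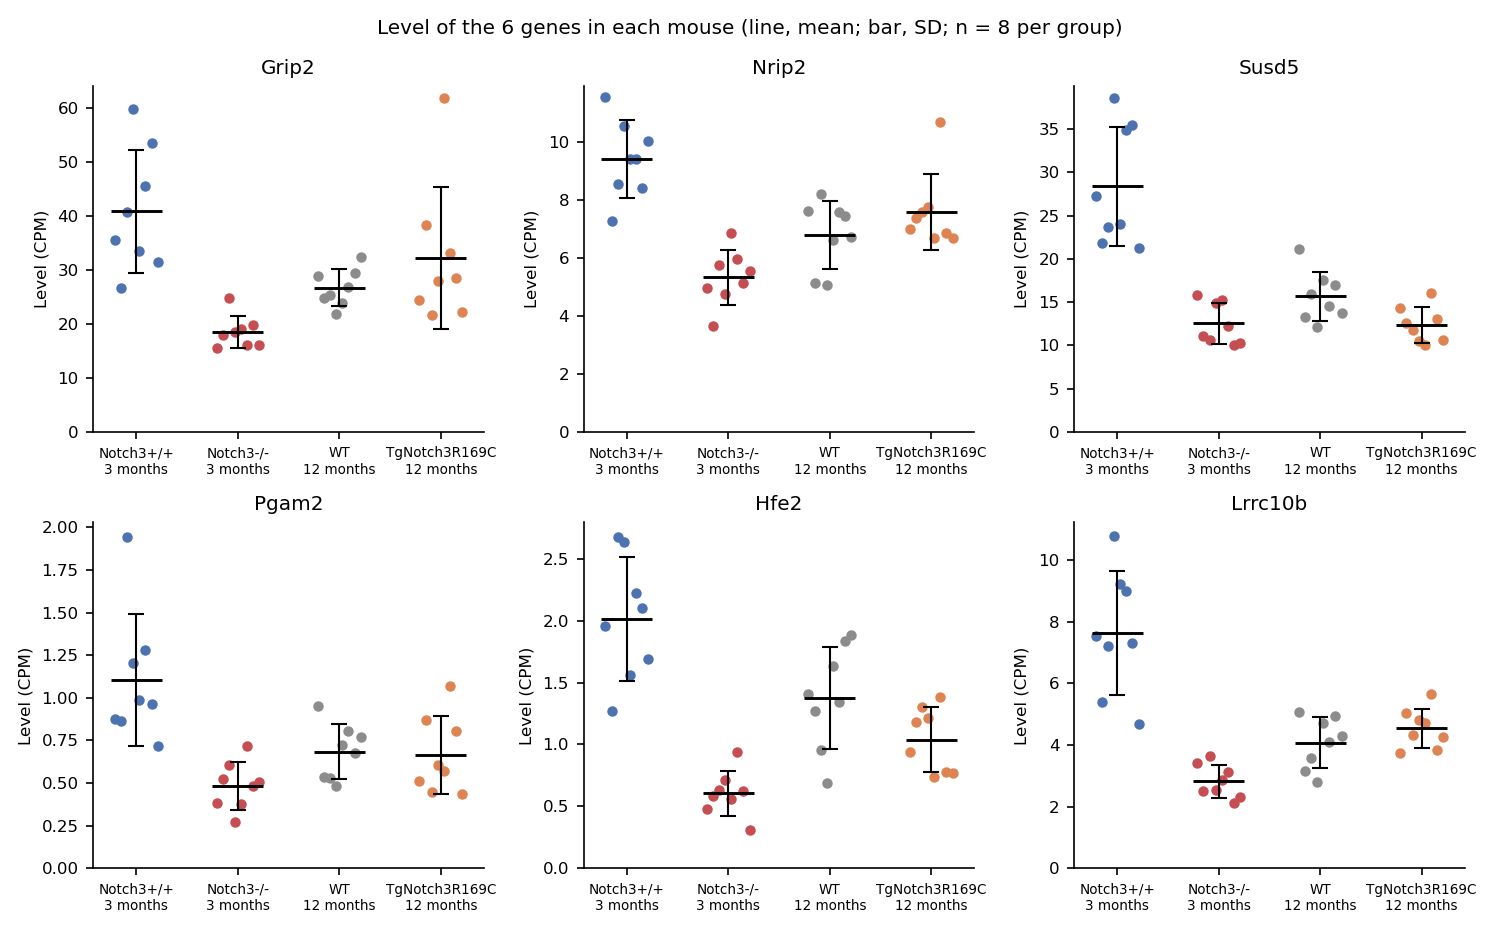
Level of each gene in CPM (vertical axes from 0) in each of the 32 mice, by group, with a line at the mean and bars of 1 SD (n = 8). The Notch3-/- mice lie below all Notch3+/+ mice for every gene except Pgam2, where the ranges touch, whereas TgNotch3R169C and WT mice overlap for all 6 genes.

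Set side by side, the values that chose the genes were log2 fold changes in Notch3-/- mice of −1.72 (SE 0.202) for Hfe2, −1.43 (SE 0.166) for Lrrc10b, −1.19 (SE 0.224) for Pgam2, −1.18 (SE 0.148) for Susd5, −1.14 (SE 0.153) for Grip2, and −0.82 (SE 0.119) for Nrip2. Their median was −1.18, where the median of 17714 genes was −0.0011. For 5 of the 6 genes the Notch3-/- range lay wholly below that of Notch3+/+ mice, which was so for 0.231% of all genes. Since these values chose the genes, nothing is read from them.

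The rule that chose the genes did not use the comparison at 12 months, which was tested. Of the 6 genes, 0 were called in TgNotch3R169C mice by edgeR at an adjusted p below 0.05, where 0.113% of 17731 genes were called. DESeq2, which called 0.33% of genes, and limma voom also called 0 members, and 1 had an unadjusted p below 0.05. Grip2, Nrip2, and Lrrc10b had values above 0 and Susd5, Pgam2, and Hfe2 values below 0, with a median of 0.068 beside −0.0074 over all genes. The lowest bound of the 95% CIs was a 0.563-fold level (Hfe2) and the highest a 1.56-fold level (Grip2). A p that misses the threshold does not show that the groups are alike.

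In a fit of all 4 groups, the change in TgNotch3R169C mice exceeded that in Notch3-/- mice for all 6 genes. The difference of the 2 log2 fold changes was 1.60 (SE 0.213) for Lrrc10b, 1.42 (SE 0.247) for Grip2, 1.33 (SE 0.288) for Hfe2, 1.17 (SE 0.307) for Pgam2, 0.98 (SE 0.170) for Nrip2, and 0.84 (SE 0.194) for Susd5. It contains the comparison that chose the genes and so has no test here.

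The control groups themselves stood apart. All 6 genes were lower in WT mice aged 12 months than in Notch3+/+ mice aged 3 months, with log2 differences of −0.91 (SE 0.168) for Lrrc10b, −0.86 (SE 0.144) for Susd5, −0.70 (SE 0.206) for Pgam2, −0.62 (SE 0.146) for Grip2, −0.56 (SE 0.202) for Hfe2, and −0.47 (SE 0.116) for Nrip2. The median was −0.66, beside 0.0026 over 17643 genes. The Notch3+/+ mice took part in the choice, and age, line, and cohort differ together here, so these are descriptions. Choroid plexus RNA also differed, since its marker Ttr ranged from 7895 to 23151 CPM in 4 of the 8 WT mice and reached 320.6 CPM at most in Notch3+/+ mice. With Ttr as a covariate, Hfe2 went from −0.56 to −0.31, Grip2 from −0.62 to −0.40, and the median of the 6 genes from −0.66 to −0.51. Notch3 itself differed by −0.20 (SE 0.0875) between the same groups. In the order of mean levels, Notch3+/+ mice came highest for every gene. Notch3-/- mice came lowest for every gene except Susd5, for which they (12.5 ± 2.42 CPM) and TgNotch3R169C mice (12.4 ± 2.09 CPM) overlapped almost wholly. The ranges of WT and TgNotch3R169C mice overlapped for all 6 genes.

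**Figure D2:**
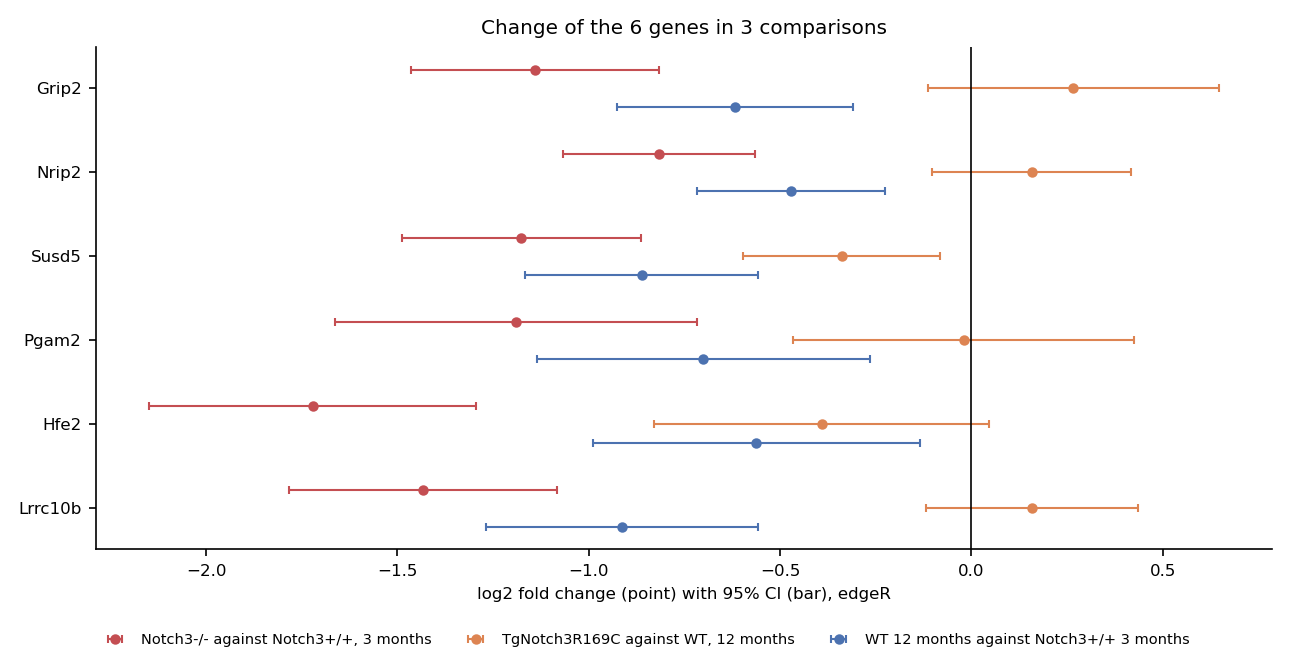
Log2 fold change of each gene (horizontal axis) with its 95% CI in 3 comparisons, from edgeR fits of 2 groups. The values of Notch3-/- mice, which chose the genes, lie between −1.72 and −0.82, those of TgNotch3R169C mice between −0.39 and 0.27, and those of WT mice aged 12 months, set against the younger Notch3+/+ mice, between −0.91 and −0.47.

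Per kilobase of exon, which allows levels of different genes to be compared, Susd5 was the most abundant of the 6 genes in Notch3+/+ mice, at 6.95 ± 1.69 CPM per kb. Grip2 followed at 4.37 ± 1.23, Lrrc10b at 3.64 ± 0.957, Nrip2 at 2.5 ± 0.357, Pgam2 at 1.31 ± 0.459, and Hfe2 at 0.993 ± 0.246 CPM per kb. The ranges over mice of each gene and the next in this order overlapped. In TgNotch3R169C mice Grip2 (3.45 ± 1.41) came before Susd5 (3.03 ± 0.512 CPM per kb), a difference within their spread. Spread between mice was beyond counting error for the abundant genes. The CV of Grip2 was 40.9% in TgNotch3R169C and 28.1% in Notch3+/+ mice, where counting alone gives 3.26% and 2.72%. For Hfe2 the CV was 29.8% in Notch3-/- mice, against 23.7% from counting, and 24.8% in Notch3+/+ mice, against 12.2%.

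Smooth muscle cells are the main site of NOTCH3 in arteries, so the members were set against their markers. In Notch3-/- mice 6 of the 10 smooth muscle markers tested were called lower and 0 higher (edgeR, where 0.649% of all genes were called), with a median log2 fold change of −0.59. Of the 10, 9 had values below 0 and 1, Des, had a value above 0 (0.28, SE 0.0905, unadjusted p = 0.00655, edgeR). Their summed level was 1754 to 2640 CPM in Notch3-/- mice and 2531 to 4404 CPM in Notch3+/+ mice. The least abundant, Myocd, had a mean of 6.63 CPM in Notch3-/- mice, so no defining marker was at 0. In TgNotch3R169C mice 0 of the 10 were called, and 9 had values below 0 and 1 above, with a median of −0.21. Of the 10, 4 were lower at an unadjusted p below 0.05 (edgeR), where 7.27% of all genes were below it in either direction. The list includes Myh11, the smooth muscle myosin, which fell by 1.04 on the log2 scale in Notch3-/- mice. Of 6 pericyte markers, edgeR called 1 higher in Notch3-/- mice and 0 lower. It was Kcnj8, a potassium channel subunit, with a log2 value of 0.46 (adjusted p = 0.00848), and its partner Abcc9 had 0.37 (adjusted p = 0.0831, edgeR). DESeq2 called 2 of the 6. In edgeR 4 of the 6 had values above 0 in Notch3-/- mice and 2 had values below 0, with a median of 0.062. All 6 oligodendrocyte markers had values above 0 there (median 0.46), with 0 called. The part of these cells in the values of the members was not tested.

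A smooth muscle score, the mean log2 CPM of the 10 markers, was compared with each gene across the 32 mice after the group means were removed. It was 1 of 5 measures (with Notch3 and the neuron, endothelial, and skeletal muscle markers), making 30 relations, of which 3 passed an adjusted p below 0.05 (permutation within groups, two-sided). Susd5 followed the score closely, with r = 0.83 (permutation p = 1e-05, the smallest that the permutations can give, adjusted 0.0003) and a Spearman rank coefficient of 0.85 (permutation p = 1e-05, adjusted 0.0003). Its r was 0.88 in the 16 mice aged 3 months and 0.76 in the 16 aged 12 months, and 0.80 without the 2 mice farthest from the median score. It passed in all 32 analyses that each left out 1 mouse.

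Lrrc10b and Hfe2 followed the score less closely. For Lrrc10b r was 0.56 (permutation p = 0.00271, adjusted 0.0328) and the Spearman coefficient was 0.49 (permutation p = 0.00842, adjusted 0.0631). Its r was 0.57 at 3 months, 0.53 at 12 months, and 0.44 without the 2 farthest mice. For Hfe2 r was 0.52 (permutation p = 0.00328, adjusted 0.0328) and the Spearman coefficient was 0.51 (permutation p = 0.00456, adjusted 0.0461). Its r was 0.59 without the 2 farthest mice and 0.69 at 12 months, but 0.40 at 3 months (permutation p = 0.138), where the relation did not pass. In the 32 analyses that each left out 1 mouse, the relation of Lrrc10b passed in 26, with r from 0.47 to 0.65 over all 32. That of Hfe2 passed in 23, with r from 0.46 to 0.61. That of Lrrc10b no longer passed without Notch3+/+ replicate 2, 4, or 8, Notch3-/- replicate 1, TgNotch3R169C replicate 6, or WT replicate 4, with r from 0.47 to 0.55 and an adjusted permutation p of 0.0538 to 0.0966. That of Hfe2 did not pass without Notch3+/+ replicate 2, 4, 5, or 8, Notch3-/- replicate 4, TgNotch3R169C replicate 3, 5, or 6, or WT replicate 4, with r from 0.46 to 0.51 and an adjusted permutation p of 0.0507 to 0.0966.

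Grip2, Nrip2, and Pgam2 did not pass with the smooth muscle score. Their r was 0.04, 0.33, and 0.07 (adjusted permutation p of 0.837, 0.221, and 0.784), and the Spearman coefficients were 0.13, 0.33, and 0.08 (adjusted 0.658, 0.161, and 0.691). For Grip2 the value turned on TgNotch3R169C replicate 5, which had the highest Grip2 level and the lowest score of its group, and r was 0.34 without it. The difference between the relations of Susd5 and of these genes was not itself tested.

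**Figure D3:**
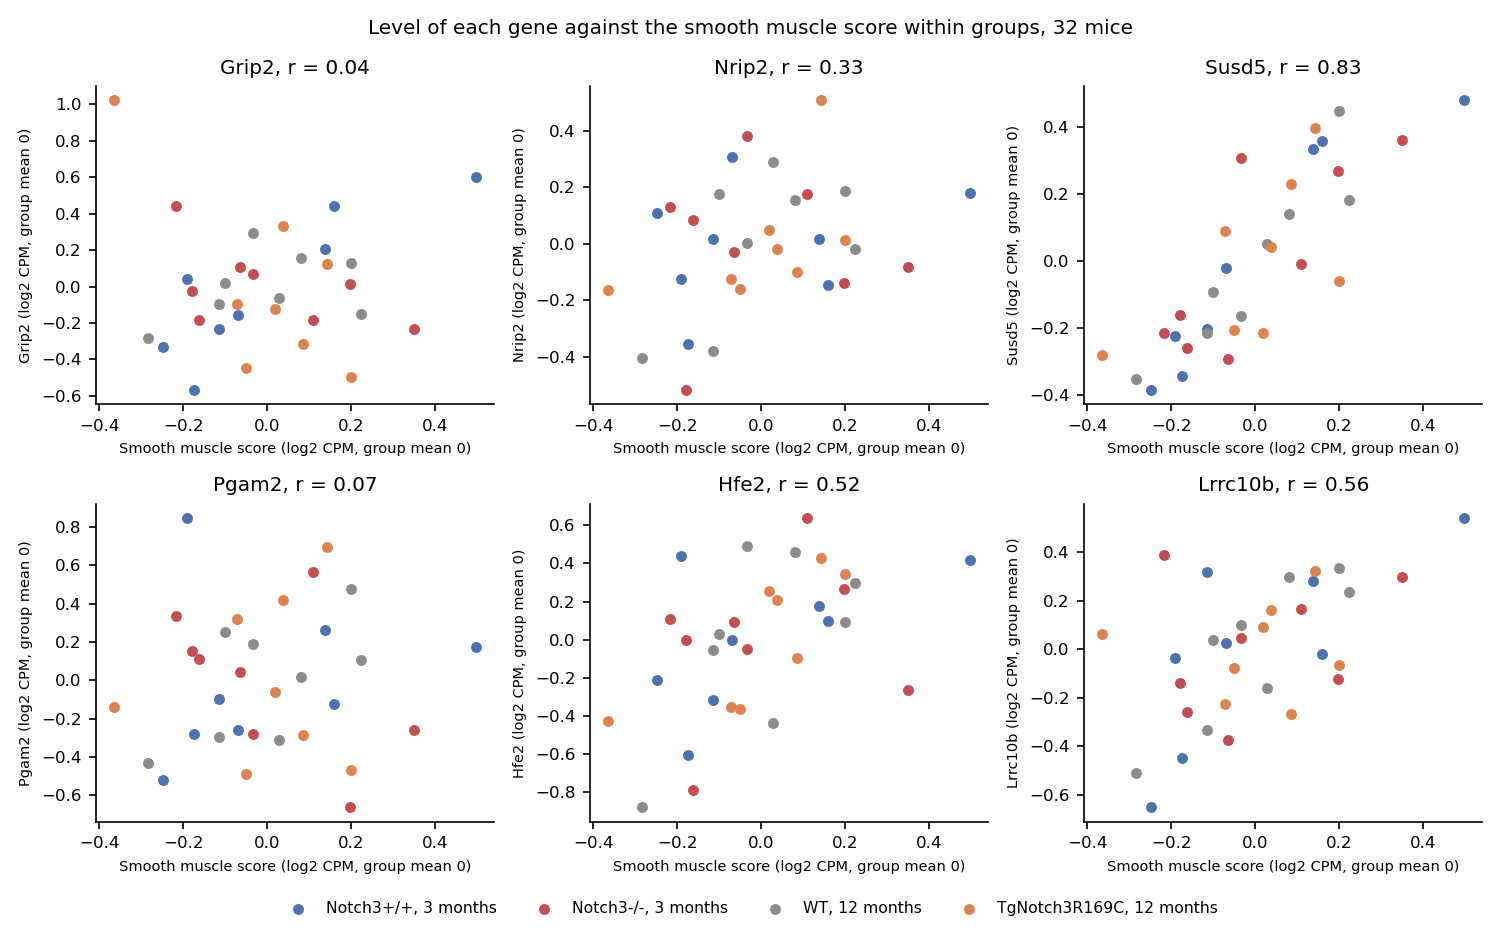
Log2 CPM of each gene (vertical axes) against the smooth muscle score (horizontal axes, mean log2 CPM of 10 markers), both with the mean of each group set to 0, for 32 mice colored by group. Points of Susd5 follow a line (r = 0.83), those of Hfe2 and Lrrc10b do so loosely (0.52 and 0.56), and the TgNotch3R169C mouse at the top left of the Grip2 panel is replicate 5.

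With the score as a covariate, the values of Notch3-/- mice kept their direction for all 6 genes. Those of Susd5, Grip2, Lrrc10b, and Hfe2 came closer to 0, at −0.54, −0.78, −0.996, and −1.37, and so did that of Nrip2, at −0.75, while that of Pgam2 was −1.30. Susd5 moved the most, from −1.18, and Nrip2 the least, from −0.82. The median of the 6 genes went from −1.18 to −0.89. The score differs between these groups, and it is itself made mostly of genes that fell, so its part in the result was not tested. Between the control groups the score was also lower at 12 months (median 6.62 against 7.26 log2 CPM), and the values there changed more. With the covariate these values between controls were 0.20 for Grip2, 0.16 for Hfe2, 0.12 for Susd5, 0.01 for Lrrc10b, −0.16 for Nrip2, and −0.37 for Pgam2, and the median of the 6 genes went from −0.66 to 0.067. In TgNotch3R169C mice the covariate brought Susd5 from −0.34 to −0.11, Hfe2 from −0.39 to −0.071, and Grip2 from 0.27 to 0.033. It took Nrip2 from 0.16 to 0.33 (adjusted p = 0.292, edgeR), Lrrc10b from 0.16 to 0.34 (adjusted p = 0.329, edgeR), and Pgam2 from −0.021 to 0.15. The median of the 6 genes went from 0.068 to 0.094, and 0 of the 6 genes were called with it (edgeR).

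**Figure D4:**
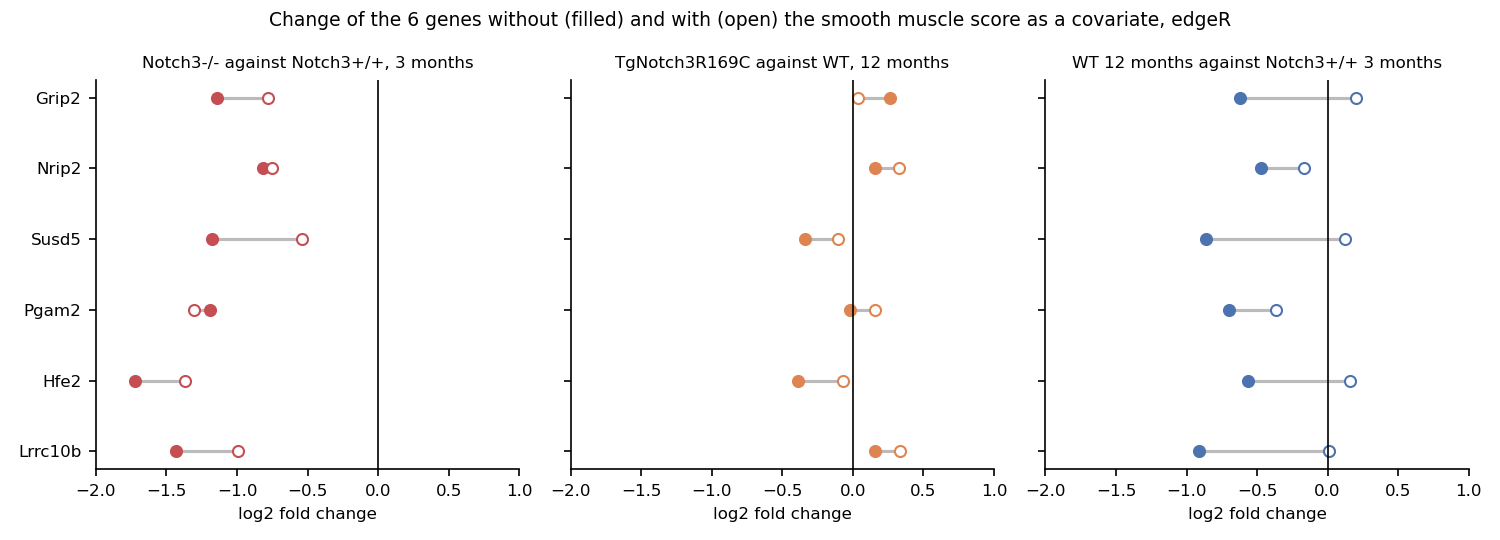
Log2 fold change of each gene (horizontal axes) from edgeR fits without (filled) and with (open) the smooth muscle score as a covariate, in 3 comparisons. Values of Notch3-/- mice stay between −1.37 and −0.54 with the score, and those between the control groups move toward 0 or past it.

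Neuron markers varied between libraries. None of the 10 was called in either mutant, and their median log2 fold change was 0.44 in TgNotch3R169C and −0.01 in Notch3-/- mice. All 10 had values above 0 in TgNotch3R169C mice, and in Notch3-/- mice 5 were above 0 and 5 below. Of the 6 genes, Pgam2 (r = 0.49, adjusted permutation p = 0.0657), Grip2 (r = 0.45, adjusted 0.0806), and Nrip2 (r = 0.40, adjusted 0.137) had the highest r with the neuron score, and 0 passed. The Spearman coefficients were 0.42, 0.50, and 0.44 for these genes (adjusted permutation p of 0.0891, 0.0461, and 0.0834), so Grip2 passed by rank alone. Its r was 0.68 in the mice aged 12 months (permutation p = 0.00124) and 0.21 in those aged 3 months (permutation p = 0.513). The relation of Pgam2 passed without Notch3+/+ replicate 1, Notch3-/- replicate 5, TgNotch3R169C replicate 5, or WT replicate 1, 3, or 5, with an adjusted permutation p as low as 0.0263. That of Nrip2 passed without Notch3+/+ replicate 3 (adjusted permutation p = 0.0184), and that of Grip2 without Notch3+/+ replicate 3 or 4 (adjusted 0.0159 and 0.0369). With the neuron score as a covariate, the value of Grip2 in TgNotch3R169C mice was −0.010 and that of Nrip2 0.071, while those of Notch3-/- mice were −1.16 and −0.84. None of the 6 genes passed with Notch3 itself (r from 0.11 to 0.36) once group means were removed, nor with the endothelial (r from −0.29 to 0.35) or skeletal muscle markers (r from −0.19 to 0.29). In Notch3-/- mice the Notch3 reads are those left in the knockout, and in TgNotch3R169C mice they do not separate rat from mouse. The r with Notch3 is thus not a relation with the level of working Notch3 in those mice.

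Pairs of the 6 genes all had a positive r within groups, from 0.17 for Grip2 and Nrip2 to 0.59 for Susd5 and Lrrc10b (median 0.41 over 15 pairs). These values share library and depth and are given as a description. The r of Lrrc10b with the other 5 genes was between 0.48 and 0.59. WT replicate 4 was the lowest WT mouse for all 6 genes, and also for Notch3 and the smooth muscle score. It had the highest Ttr level of the 32 mice (23151 CPM), whose part in these values was not tested. TgNotch3R169C replicate 6 was the highest of its group for all but Grip2. Without TgNotch3R169C replicate 5 the pairs ranged from 0.18 to 0.61 (median 0.48).

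**Figure D5:**
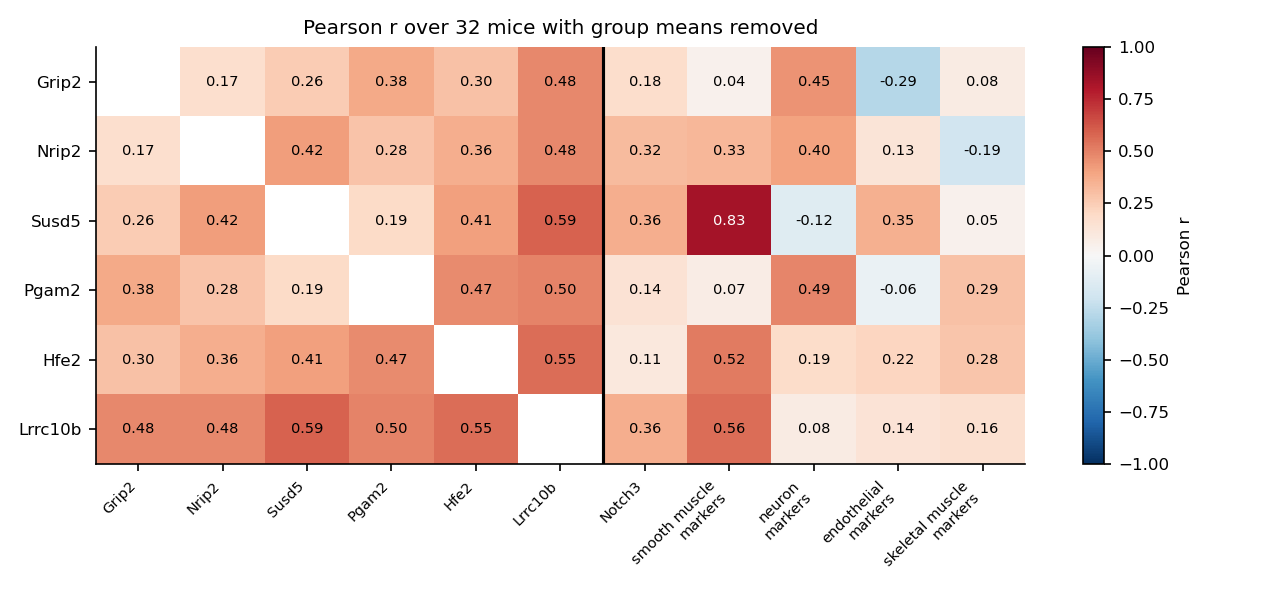
Pearson r (color and number) over 32 mice, with group means removed, of each gene with the other members and with 5 other measures, where markers stand for the mean log2 CPM of a list. The 15 pairs of members are all above 0, and the highest value is that of Susd5 with the smooth muscle markers (0.83).

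The genes most like each member within groups differed from member to member. Over 18555 genes and 32 mice, Susd5 was most like Mcam (r = 0.87), Pdlim3 (0.86), and Myh11 (0.86), of which Mcam encodes an adhesion protein of vessel walls and Pdlim3 a protein of muscle Z-lines. Lrrc10b was most like Cspg4 (0.81), the NG2 proteoglycan of pericytes and smooth muscle, then Gm10687 (0.76) and Rps6ka5 (0.73). Grip2 was most like Sall3 (0.89), Scgn (0.85), and Sp9 (0.85), of which Sp9 encodes a transcription factor of developing interneurons and Scgn a calcium-binding protein of neurons and endocrine cells. These genes peaked in the same library as Grip2. In TgNotch3R169C replicate 5 Sall3 stood at 22.4 CPM, Scgn at 7.69 CPM, and Sp9 at 11.7 CPM, where the highest of the other 31 mice reached 8.04, 3.08, and 5.35 CPM, and r without that library was 0.83, 0.82, and 0.79.

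Nrip2 was most like Phkg1 (0.75), a subunit of phosphorylase kinase, then Wnt7b (0.73), a WNT ligand, and Grik4 (0.72), a kainate receptor subunit. Hfe2 was most like Smarcd3 (0.72), a chromatin remodeling subunit, Opn3 (0.72), an opsin, and Gng8 (0.71). For Pgam2 the values were lowest, at 0.68 for Ttll11, 0.65 for Stx6, and 0.65 for Vcpkmt. Points in all these relations share library and depth.

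Genes related to the members were counted in 6 lists, 1 for each member, which hold 131 distinct genes. They are paralogues, genes of a like domain or pathway, and partners of a member or of its paralogue. The list of Lrrc10b holds Lrrc10 and sarcomere partners of Lrrc10, which are not known here to act with Lrrc10b. In Notch3-/- mice 124 were tested, and 2 were called lower and 0 higher by edgeR, where 0.649% of all genes were called. Of the 124, 16 had an unadjusted p below 0.05 (7.69% of all genes did), and the median was −0.0042 beside −0.0011 over all genes. Cspg4, which GRIP proteins bind, fell from 72.6 ± 11.3 to 51.8 ± 5.64 CPM, a change of −0.49 on the log2 scale (adjusted p = 0.0159, edgeR, SE 0.0919). Ldb3, a Z-line protein in the list of Lrrc10b, fell from 15.5 ± 3.65 to 9.69 ± 0.779 CPM, or by −0.67 on the log2 scale (adjusted p = 0.00848, edgeR, SE 0.117). DESeq2 called 3 list genes and voom 2, and 3 were called by edgeR in the fit of all 4 groups. None was called with the smooth muscle score as a covariate. In TgNotch3R169C mice 125 were tested and 0 were called by edgeR, DESeq2, or voom, with 10 at an unadjusted p below 0.05 (edgeR, where 7.27% of all genes were).

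Paralogues of the members were not called in either mutant. Grip1, the paralogue of Grip2, had a log2 value of 0.051 (SE 0.181) in Notch3-/- mice, from a mean of 5.45 ± 1.67 CPM against 5.27 ± 0.814 CPM in their controls. Nrip1 (−0.10) and Nrip3 (0.09), Susd1 (0.20), Susd2 (−0.15), Susd3 (−0.0037), Susd4 (0.07), and Susd6 (0.02), and the other RGM genes Rgma (−0.05) and Rgmb (−0.05) had small values. Pgam1, the form of phosphoglycerate mutase found in most tissues, averaged 5.12 ± 0.508 CPM without Notch3 and 5.29 ± 0.602 CPM with it (log2 value −0.045, SE 0.0852), on reads that it may share with near-identical copies, and Pgam5 had a value of 0.0064. Lrrc10, the heart paralogue of Lrrc10b, averaged 0.0484 CPM without Notch3 and 0.0534 CPM with it, below the filter.

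Within the lists, the glycolysis genes around Pgam2 (22 tested) had 0 calls in either mutant, and the most abundant, Aldoa, had a log2 fold change of −0.0065 in Notch3-/- mice. The receptors, SMAD proteins, and iron genes around Hfe2 (30 tested in Notch3-/- mice) had 0 calls, with Id1, a target of bone morphogenetic proteins, at 0.32 and Fth1, the most abundant, at 0.20 (adjusted p = 0.267 and 0.473, edgeR). Hamp, which encodes hepcidin, averaged 0.0632 CPM without Notch3 and 0.0490 CPM with it, below the filter. The hyaluronan and sushi domain genes around Susd5 (24 tested) and the nuclear receptors and coregulators around Nrip2 (21 tested) also had 0 calls, and the most abundant gene around Susd5 was Stab1 (0.05). In the list of Lrrc10b all 6 genes tested had values below 0 in Notch3-/- mice, from −1.17 for Tcap to −0.05, with a median of −0.25, and edgeR called Ldb3 alone, whereas DESeq2 also called Tcap, a Z-line protein that edgeR gave an adjusted p of 0.0920. The most abundant there was Actn4 (−0.12), and among the partners of Grip2 it was Efnb2 (−0.06).

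Pgam2 and Hfe2 are known from skeletal muscle. Of 10 skeletal muscle markers, 7 passed the filter on low counts in the mice aged 3 months. By edgeR 0 were called, with a median of 0.22, 5 values above 0, and 2 below 0. Voom called 1 of them. Their summed level was 5.17 to 19.4 CPM in Notch3-/- and 6.88 to 8.72 CPM in Notch3+/+ mice, and the defining markers Ckm, Myh2, and Myh4 had means between 0.0108 and 0.409 CPM. Of the 7, 1 was lower at an unadjusted p below 0.05 (7.69% of all genes were below it in either direction). It was Myl1, with a log2 value of −1.61 (SE 0.516, unadjusted p = 0.00634, adjusted p = 0.294, edgeR). Cardiac markers were near the summed level of the skeletal muscle markers, with sums of 4.62 to 12.6 CPM over all groups. Myh6, the heart myosin, had a mean of 0.0264 CPM in Notch3-/- mice. The part of muscle fibers in the values of Pgam2 and Hfe2 was not tested beyond their relations with the skeletal muscle markers, given above.

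The genes next to each member on its chromosome, by GENCODE order and with genes below the filter skipped, numbered 12. The number skipped was 22 between Hfe2 and Fcgr1, 4 between Nrip2 and Foxm1, and at most 3 for the others, so some are not direct neighbors. Of the 12 neighbors, 1 was called in Notch3-/- mice by edgeR, where 0.649% of all genes were called. It was 4930520O04Rik, a gene beyond Susd5, which averaged 1.05 ± 0.153 CPM without Notch3 and 1.92 ± 0.552 CPM with it (log2 value −0.87, adjusted p = 0.0257, SE 0.174). Its r with Susd5 within groups was 0.71. DESeq2 also called 1 neighbor and voom 0, and the call was lost without any 1 of 9 mice (Notch3+/+ replicates 1, 4, 6, and 7 and Notch3-/- replicates 2, 5, 6, 7, and 8). The other 11 neighbors, namely Slc6a6 and Ccdc174 beside Grip2, Foxm1 and Itfg2 beside Nrip2, Fbxl2 before Susd5, Dbnl and Polm beside Pgam2, Fcgr1 and Gm15441 beside Hfe2, and AC124169.1 and Ppp1r32 beside Lrrc10b, had values between −0.52 and 0.33, and in TgNotch3R169C mice 0 of the 12 were called.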

How the data were processed

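The authors deposited raw counts per Ensembl gene for 32 libraries of dissected brain arteries, made from polyA-selected RNA with a stranded kit. The submitters' processing notes name bcl2fastq 2.20.0.422, cutadapt 1.10, Bowtie2 2.2.8, STAR 2.5.3a, HTSeq 0.6.1p1, and the build mm39, and the counting options, strand included, were not given in the sources used here. Library totals of 20289487 to 54481934 counts limit the precision of Pgam2 and Hfe2, which rest on 8 to 120 counts per library.

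Groups were taken from the labels, with 8 mice each. The main test was the quasi-likelihood test of edgeR 4.0.16 (R 4.3.3) in fits of 2 groups, after filterByExpr and TMM, with Benjamini-Hochberg adjustment over all genes tested and a threshold of 0.05. The difference between the mutants came from a fit of all 4 groups. DESeq2 1.42.0, limma 3.58.1 (voom), other normalizations and filters, covariates, a replicate block, and leaving out each mouse were alternatives. Scores were mean log2 CPM (prior count 2), and relations were tested by 100000 permutations within groups. The scripts were tested on simulated data.

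Members, lists, and tests were chosen with earlier results of these data known, and the motifs with the promoter sequences in view. The text names the members, list genes that passed the test, paralogues, the most abundant gene of each list (that of the Nrip2 list is not reported here), the neighbors, and the 3 genes most like each member. Myocd, Abcc9, Id1, Hamp, Tcap, Tnnt3, Tnni2, Myl1, and the muscle myosins were named after their values were seen.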

Additional observations from a re-analysis of the deposited data

Results flagged for a closer look

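A mouse far from the rest of its group stood out in 5 of 28 groups of 8 values, where chance gives about 1.4. The measure is the gap to the nearest mouse divided by the range of the group, read against Dixon's critical value for 8 samples. For Grip2 it was 0.550 in Notch3-/- replicate 3 (24.9 CPM, next 19.7) and 0.582 in TgNotch3R169C replicate 5 (61.8 CPM, next 38.4). The latter mouse also had the highest neuron score, the highest Ttr level (12892 CPM), and the lowest smooth muscle score of its group, and the part of these in its Grip2 level was not tested. For Nrip2 the measure was 0.730 in TgNotch3R169C replicate 6 (10.7 CPM, next 7.74). For Pgam2 it was 0.543 in Notch3+/+ replicate 3 (1.94 CPM, next 1.28), the mouse with the highest neuron score of its group. For Notch3 it was 0.538 in TgNotch3R169C replicate 3 (108 CPM, next 167.6), which still lay above every WT mouse.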

How the results depend on the processing

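With 8 mice per group, none of the 6 genes was called in TgNotch3R169C mice under any of 12 other settings or without any 1 mouse. With the smooth muscle score as a covariate, the median of the 6 genes was −0.89 in Notch3-/- mice and 0.067 between the control groups, 0 list genes and 0 neighbors were called in Notch3-/- mice, and Pgam2 in TgNotch3R169C mice turned to 0.15. With the neuron score Grip2 there turned to −0.010. The median of the 6 genes in TgNotch3R169C mice was below 0 in 2 of the 12 other settings, at −0.095 with the neuron score and −0.041 with Ttr as a covariate. With Ttr the values were −0.54 for Hfe2, −0.44 for Susd5, −0.16 for Pgam2, 0.082 for Nrip2, 0.11 for Lrrc10b, and 0.28 for Grip2. The neighbor was also not called (0 calls) with no filter, by limma voom, or with a replicate block. Without each mouse in turn, the medians were −1.24 to −1.13 (Notch3-/-), −0.037 to 0.12 (TgNotch3R169C), −0.72 to −0.58 (control groups), and 1.13 to 1.32 (difference between the mutants), neighbors called were 0 to 1, and Pgam2 in TgNotch3R169C mice ranged from −0.15 to 0.062. It was above 0 without TgNotch3R169C replicate 1 (0.025), 3 (0.042), 5 (0.014), or 8 (0.048), or WT replicate 1 (0.062), 6 (0.020), or 8 (0.0092). Relations that passed numbered 1 to 5 without each mouse, 1 in the mice aged 3 months alone, and 3 in those aged 12 months. Hfe2 could not be fitted in Notch3-/- mice when at least 10 counts were asked of every library. The cause of these changes was not tested.

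Replicate numbers are shared between groups. Deviations of same-numbered mice had a correlation over 0.1 in 4 of 8 pairs of each cohort, and 3 and 1 of 8 mice correlated best with their own number. With 8 pairs per cohort, these values cannot decide whether the numbers pair the mice. The paper describes the WT mice as littermates matched in age. With the replicate block 97 rather than 115 genes were called in Notch3-/- mice and 6 rather than 20 in TgNotch3R169C mice, and 0 of the 6 genes were called in TgNotch3R169C mice.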
